A study of Homo sapiens with 6 samples.

Results

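The 43 genes of homologous recombination and the Fanconi anemia pathway described here were taken from a list of symbols and matched to the Ensembl identifiers of the deposited gene counts. All 43 were found among the 63677 genes of the table, and all 43 passed the filter of more than 10 counts in total that left 21729 genes for testing. RNA was measured in UWB1.289, an established human cell line from an ovarian carcinoma that lacks functional BRCA1. The cells received 4 µM Olaparib for 24 h (3 samples) or the solvent DMSO for 24 h (3 samples). Olaparib is a clinical inhibitor of poly(ADP-ribose) polymerases (PARP). The dose is that of the sample labels, whereas the design text of the series gives 10 µM. All 6 samples share the same line and medium, no line with BRCA1 restored was compared, and the genotype is entered as WT in the labels of all 6. The study describes 3 dishes per condition and 3 independent replicates. The p-values below rest on the spread between samples of this single line. In edgeR the spread of each gene is moderated with that of the other genes.

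Homologous recombination repairs a broken chromosome by copying from the sister chromatid. Break ends are first resected to single strands, BRCA1, PALB2 and BRCA2 then help to load the recombinase, and helicases and nucleases take apart the joined molecules. The Fanconi anemia pathway unhooks crosslinks between DNA strands: a multi-subunit ubiquitin ligase, the core complex, modifies the FANCD2-FANCI pair, and nucleases and recombination finish the repair. Cells without BRCA1 or BRCA2 are known to be sensitive to PARP inhibition.

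Total counts lay between 35360458 and 39640775 per sample, and the lowest count of any of the 43 genes in any sample was 143. Mitochondrial genes took 5.68% to 6.11% of counts. Of 10 markers of ovarian carcinoma epithelium 9 were detected, with summed normalised counts of 472040 to 495818 after Olaparib and 466209 to 481619 in DMSO. WT1 had 8 counts over all samples. Leukocyte markers summed to 107 to 147 normalised counts in every sample. Among endothelial markers PECAM1 had no count and CDH5 was detected at 1494 to 1679.8 normalised counts, while among fibroblast markers LUM had no count and COL1A2 was detected at 1405 to 1527. PAX8, an epithelial marker (log2 fold change 0.10, adjusted p = 0.0399), and VWF, an endothelial one (0.68, adjusted p = 0.0106), were the 2 markers called by edgeR, both higher after Olaparib, and their part in the results below was not tested. In bulk RNA, fewer cells of a kind and less RNA per cell cannot be told apart.

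All 43 genes were expressed, at levels that spanned 2 orders of magnitude. On a scale of transcripts relative to the library, TPM, with counts divided by the summed exon length of each gene, the mean level over the 6 samples ran from 1.22 TPM to 132 TPM, a ratio of 109, with a median of 17.3 TPM. The highest level belonged to USP1, the protease that removes ubiquitin from FANCD2, followed by RAD51AP1, a cofactor of the recombinase (70.7 TPM), the 5′ to 3′ exonuclease EXO1 (58.1 TPM), UBE2T, the ubiquitin-conjugating enzyme of the core complex (54.6 TPM), and the DNA motor protein RAD54L (48.2 TPM). The lowest levels were those of FANCB, a core complex subunit encoded on the X chromosome, RAD51D (1.91 TPM), FANCC (2.96 TPM), FANCM (3.08 TPM) and RAD51B (3.48 TPM). BRCA1 stood at 5.28 TPM and BRCA2 at 7.99 TPM, both below the median of the list, and their partner PALB2 at 30.9 TPM, above it. The subunits of the core complex were unequal on this scale, with FANCG at 23.5 TPM and FANCA at 19.7 TPM against 1.22 TPM for FANCB. The summed length takes in the exons of all annotated transcripts, so the order of the genes depends in part on the annotation. FANCL, with a summed length of 37977 bases, stood at 4.58 TPM, below FANCG with 5553 bases. Their mean normalised counts in DMSO were 1833 for FANCL and 1336 for FANCG.

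**Figure D1:**
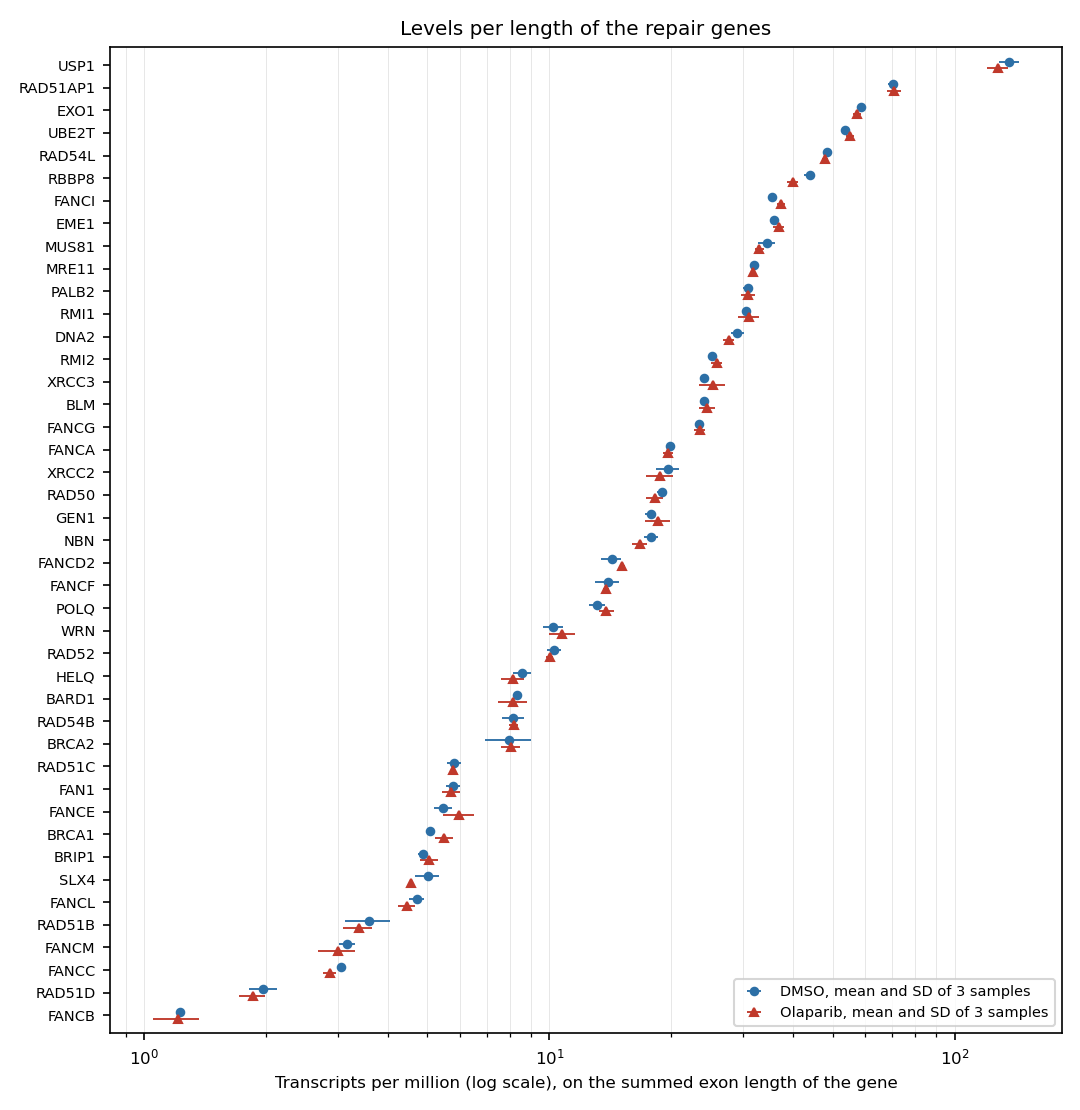
Mean level of each of the 43 genes in TPM (log axis) in 3 DMSO samples (circles) and 3 Olaparib samples (triangles), with SD as bars. The genes run from FANCB at 1.22 to USP1 at 132, and the symbols of the conditions lie close together on every line.

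To ask whether 24 h of Olaparib changed the RNA of these genes, the conditions were compared with edgeR's quasi-likelihood test, with p-values adjusted over all 21729 genes. None of the 43 genes was called at an adjusted p under 0.05, whereas 3.36% of all genes tested were called (2.15% higher and 1.21% lower after Olaparib). Of the 10073 genes with mean counts in the range of the 43, 358 were called higher and 190 lower. DESeq2 also called 0 of the 43, with 4.36% called among the genes it tested, and limma voom called 1, RBBP8, with 3.09% called over all genes. At an unadjusted p under 0.05 there were 7 of the 43 (16.3%), against 14.8% of all genes tested. The share was 20.9% among the 10073 genes whose mean counts fell in the range of the 43. BRCA1, FANCD2 and FANCI were the 3 with higher and RBBP8, NBN, USP1 and SLX4 the 4 with lower mean counts after Olaparib.

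The differences were small, and the precision was high enough to bound them. Estimated log2 fold changes (Olaparib over DMSO) ranged from -0.13 for RBBP8 to 0.14 for FANCE, with a median of -0.0070 over the 43 genes and -0.0042 over all genes tested. There were 19 genes above 0 and 24 below. The median size of the change was 3.83%, 27 genes differed by less than 5%, and 1 gene, FANCE, by more than 10%. For 41 of the 43 the 95% interval of the fold change lay within 1.2-fold in either direction (95.3%). The interval lay within 1.2-fold for 46.7% of all genes tested and for 88.7% of the 10073 genes whose mean counts fell in the range of the 43. The exceptions were FANCE, with an interval of -0.019 to 0.30 on the log2 scale, and RAD51D, with -0.26 to 0.093.

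**Figure D2:**
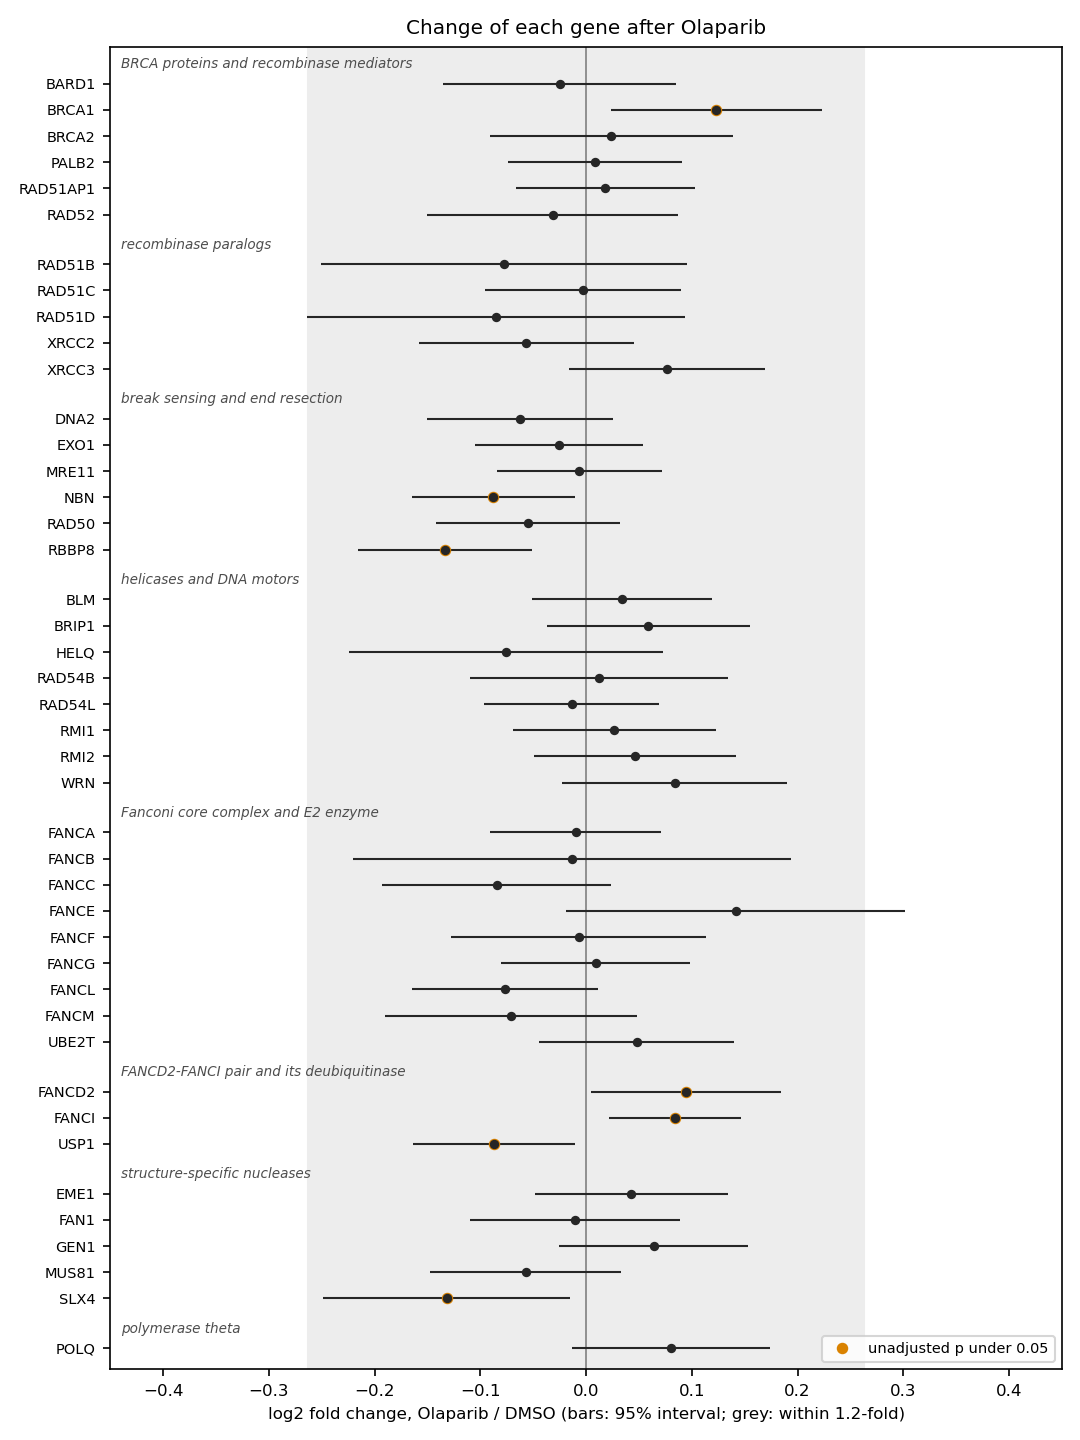
Log2 fold change of each gene after Olaparib with its 95% interval derived from the edgeR test, by role. The range within 1.2-fold is shaded and unadjusted p under 0.05 is marked by a coloured ring. Estimates run from -0.13 to 0.14, and the interval reaches past the shaded range for FANCE and, marginally, RAD51D.

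Sample by sample, the conditions mostly overlapped. The treated and the control samples did not overlap for 4 of the 43 genes (9.30%): BRCA1 and FANCI above, RBBP8 and SLX4 below. The share was 19.3% of all genes tested and 24.7% of the genes in the count range of the 43. The normalised counts of the 43 genes summed to 66651, 64043 and 64866 in the Olaparib samples and to 65631, 65241 and 65193 in the DMSO samples, so that both the highest and the lowest sum came from treated cells. Olaparib replicate 1 held the highest value of the 6 samples for 12 genes and replicate 2 the lowest for 13. The median coefficient of variation over the 43 genes was 4.03% among Olaparib samples and 2.69% among DMSO samples.

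**Figure D3:**
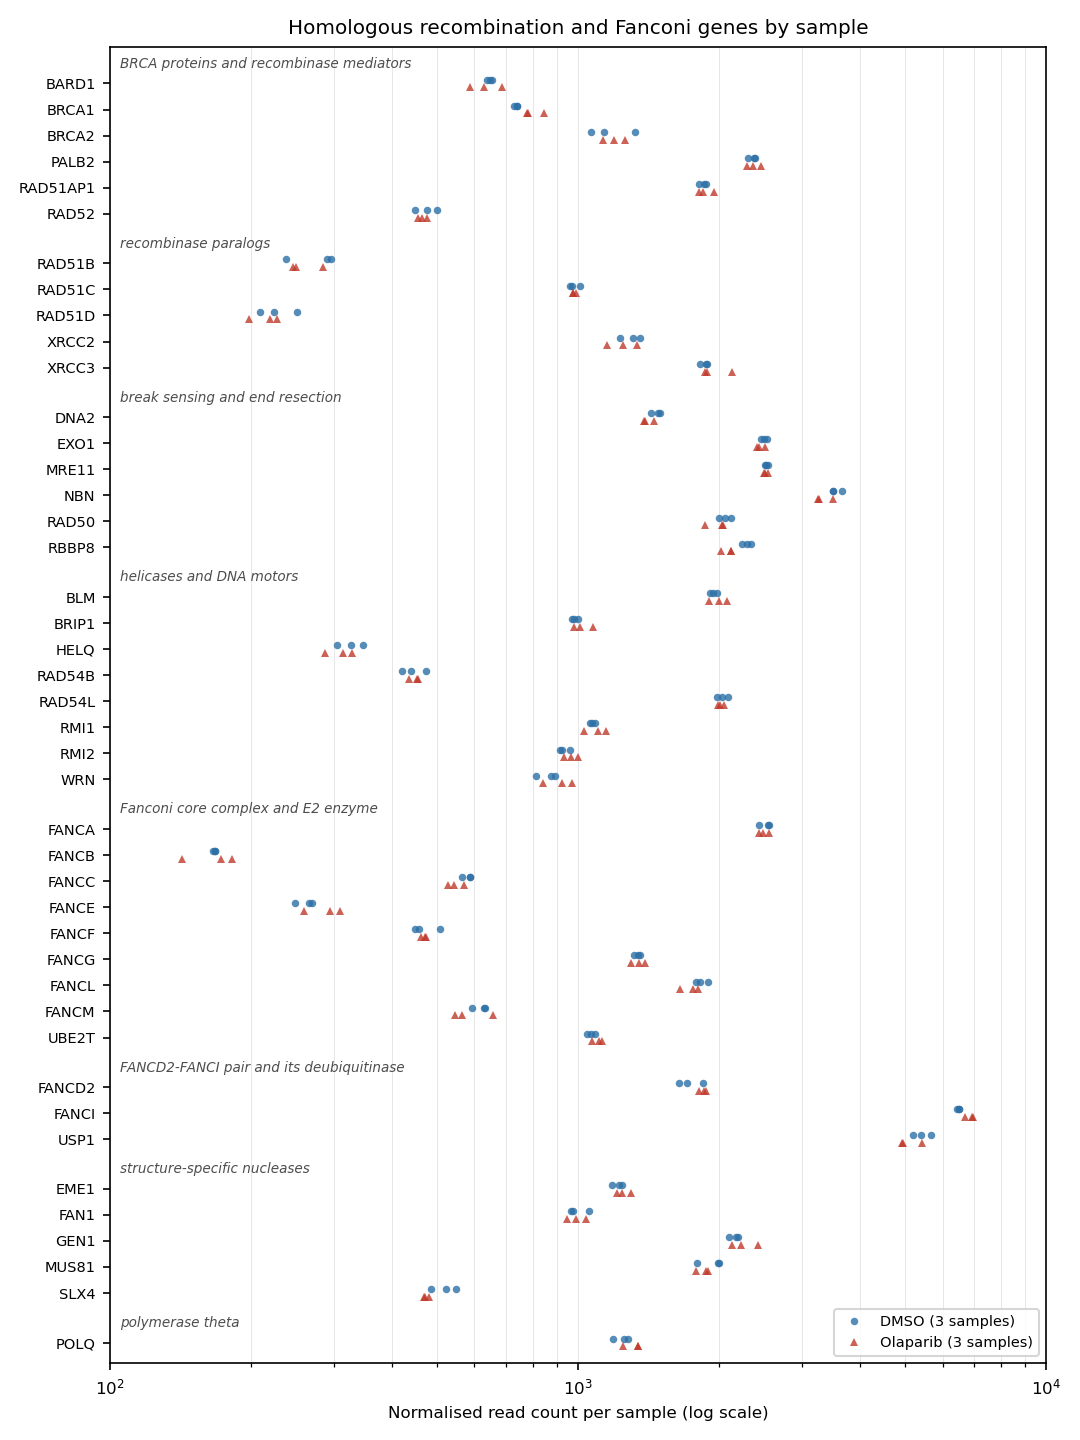
Normalised read count of each gene (log axis) in each of 3 DMSO samples (circles) and 3 Olaparib samples (triangles), ordered by role. The symbols of the conditions are separate for BRCA1, FANCI, RBBP8 and SLX4 and overlap on the other lines.

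Among the BRCA proteins and mediators that prepare and load the recombinase, 4 genes had estimates above 0 and 2 below, with a median log2 fold change of 0.013. BRCA1 (ENSG00000012048, chr17:43044295-43170245 of GRCh38) encodes the ubiquitin ligase that promotes resection and recruits PALB2, and its protein is not functional in this line. Its normalised counts were 844, 783 and 778 after Olaparib and 741, 738 and 729 in DMSO. Every treated sample was thus above every control, by 8.90% on average, with a log2 fold change of 0.12 ± 0.049 (SE, n = 3 and 3), an interval of 0.023 to 0.22 and an adjusted p of 0.193 by edgeR. A gene count does not tell mutant from intact transcripts, so these values say nothing about the protein.

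BRCA2 (ENSG00000139618, chr13:32315086-32400268), the loader of the recombinase, measured 1257, 1131 and 1192 normalised counts after Olaparib and 1325, 1137 and 1066 in DMSO. The DMSO samples enclosed all the treated ones, and the log2 fold change was 0.024 with an interval of -0.091 to 0.14 (adjusted p = 0.901, edgeR). PALB2 (ENSG00000083093, chr16:23603160-23641321), which bridges BRCA1 and BRCA2, measured 2461, 2356 and 2287 after Olaparib and 2370.3, 2386 and 2307 in DMSO. Here the treated samples spanned the controls, the log2 fold change was 0.0085 and the interval ran from -0.073 to 0.090 (adjusted p = 0.953, edgeR). The estimates for BARD1, the obligate partner of BRCA1 (-0.025), for RAD52, an annealing protein (-0.032), and for RAD51AP1 (0.018) were of the same small order.

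The recombinase paralogs form complexes that stabilise the recombinase on DNA, and 4 of the 5 had estimates below 0, with a median log2 fold change of -0.056. None reached an unadjusted p of 0.05. XRCC3 (ENSG00000126215, chr14:103697609-103715504) had the smallest p of the family, with 1866, 2128 and 1882 normalised counts after Olaparib and 1817, 1882 and 1871 in DMSO. Olaparib replicate 2 alone stood clear of the controls, and the log2 fold change was 0.077 ± 0.046 (SE, n = 3 and 3; adjusted p = 0.463, edgeR). Without that sample it was 0.014. Exons of KLC1 on the opposite strand overlap 76.7% of the exon length of XRCC3, and as the strand setting of the counting was not given in the sources used here, reads of the 2 genes may have been mixed. RAD51C was at -0.0031, XRCC2 at -0.056, RAD51B at -0.077 and RAD51D at -0.085 on the log2 scale, the last 2 among the lowest in counts and with wide intervals.

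All 6 genes of break sensing and end resection had estimates below 0, with a median log2 fold change of -0.059, and none was called. RBBP8 (ENSG00000101773, chr18:22798261-23026488) encodes CtIP, the BRCA1-binding factor that starts resection, and gave the smallest p of the 43. It measured 2120.4, 2017 and 2118 normalised counts after Olaparib against 2335, 2239 and 2288 in DMSO. Every treated sample lay below every control, with means of 2085 ± 59.4 and 2287 ± 48.1 (SD, n = 3 each). The log2 fold change was -0.13 ± 0.040 (SE) with an interval of -0.22 to -0.051, a change of -8.83%. The adjusted p was 0.0614 by edgeR and 0.0568 by DESeq2, and it passed the threshold with limma voom (0.0488) and with upper quartile scaling in edgeR (0.0430). Whether RBBP8 was called thus varied with the tool and, within edgeR, with the settings of the fit, while its estimate ran from -0.15 to -0.11 on the log2 scale over 13 alternative fits.

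NBN, named because of its values, encodes the subunit that brings the MRE11 nuclease complex to breaks. Its counts were 3495, 3275 and 3251 after Olaparib and 3661, 3493 and 3497 in DMSO, with a log2 fold change of -0.088 (adjusted p = 0.248, edgeR). The highest treated sample reached the lowest controls. Its partners MRE11, the nuclease itself (-0.0066), and RAD50, the ATP-driven clamp (-0.055), differed by less, as did the long-range resection nucleases EXO1 (-0.025) and DNA2 (-0.063).

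Of the 8 helicases and DNA motors, 6 had estimates above 0 and 2 below, with a median of 0.030, and none had an unadjusted p under 0.05. WRN (ENSG00000165392, chr8:31033788-31176138), the Werner syndrome helicase, had the smallest p, with 969, 841 and 922 normalised counts after Olaparib and 875, 891 and 813 in DMSO. The ranges overlapped, and the log2 fold change was 0.084 ± 0.052 (SE, n = 3 and 3; adjusted p = 0.490, edgeR). It was 0.039 without Olaparib replicate 1, 0.14 without Olaparib replicate 2 and 0.043 without DMSO replicate 3. BLM, the Bloom syndrome helicase that dissolves joined molecules (0.034), and its cofactors RMI1 (0.027) and RMI2 (0.046) had similar estimates, and BRIP1, the helicase that binds BRCA1, was at 0.059. The motor proteins RAD54L (-0.014) and RAD54B (0.012) were close to 0, and the helicase HELQ was at -0.076. Exons of FSBP on the same strand cover 66.0% of RAD54B, so its counts are uncertain.

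The Fanconi core complex and its E2 enzyme comprised 9 genes, 3 with estimates above 0 and 6 below, around a median of -0.0098. FANCE (ENSG00000112039, chr6:35452338-35467104), the subunit that contacts FANCD2, had the largest estimate of the 43. Its normalised counts were 259, 295 and 310.1 after Olaparib and 269.8, 248 and 266 in DMSO. Olaparib replicate 1 fell among the controls and the other treated samples above them, and the log2 fold change of 0.14 ± 0.079 (SE, n = 3 and 3) had an adjusted p of 0.420 by edgeR. It was 0.21 without Olaparib replicate 1 and 0.083 without Olaparib replicate 3. FANCB (ENSG00000181544, chrX:14690388-14873255), the member with the lowest level per length, measured 182, 172 and 142 after Olaparib and 167, 168 and 166 in DMSO. The treated samples scattered on both sides of 3 nearly equal controls, so that the log2 fold change of -0.013 carried an interval of -0.22 to 0.19 (adjusted p = 0.975, edgeR). FANCA (-0.0098), FANCF (-0.0070) and FANCG (0.0090), which are subunits of the ligase, were within 1% of the controls, the catalytic subunit FANCL was at -0.077, FANCC at -0.084, the DNA-binding translocase FANCM at -0.071 and UBE2T at 0.048.

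The FANCD2-FANCI pair, the substrate that the core complex ubiquitinates, had the highest median of the role groups together with its protease, 0.084, but the 3 genes did not go the same way: the pair had estimates above 0 and USP1 below 0. FANCI (ENSG00000140525, chr15:89243945-89317261) measured 6941, 6705 and 6984 normalised counts after Olaparib and 6516, 6428 and 6519 in DMSO. All treated samples were above all controls, and the log2 fold change was 0.084 ± 0.031 (SE, n = 3 and 3) with an interval of 0.022 to 0.15 and an adjusted p of 0.143 by edgeR. FANCD2, also named because of its values, measured 1809.7, 1859.6 and 1876 after Olaparib and 1642, 1846 and 1704 in DMSO. DMSO replicate 2 fell inside the treated range, and the log2 fold change was 0.094 ± 0.044 (SE, n = 3 and 3; adjusted p = 0.299, edgeR).

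USP1 (ENSG00000162607, chr1:62436297-62451804), which reverses the ubiquitination of the pair, measured 5432, 4904 and 4941 normalised counts after Olaparib and 5659.7, 5177 and 5393 in DMSO. Olaparib replicate 1 lay within the control range and the other treated samples below it, with a log2 fold change of -0.087 ± 0.038 (SE, n = 3 and 3; adjusted p = 0.249, edgeR). Without Olaparib replicate 1 the log2 fold change was -0.13 and the adjusted p 0.0346, the single case in which leaving out a sample led to a call among the 43.

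Among the structure-specific nucleases that cut crosslinks and joined molecules, 2 genes were above 0 and 3 below, with a median of -0.010. SLX4 (ENSG00000188827, chr16:3581181-3611606), a scaffold that binds nucleases, measured 469, 469.8 and 480.1 normalised counts after Olaparib and 522, 548 and 485 in DMSO. Every treated sample was below every control, though only narrowly below DMSO replicate 3, and the log2 fold change was -0.13 ± 0.058 (SE, n = 3 and 3) with an interval of -0.25 to -0.015 and an adjusted p of 0.254 by edgeR. MUS81 (-0.057) and EME1 (0.043), which act as a dimer, had estimates of opposite sign, and the nucleases GEN1 (0.064) and FAN1 (-0.010) were also near 0. POLQ (ENSG00000051341, chr3:121431431-121545988) encodes polymerase theta, which joins ends through microhomology and on which cells lacking BRCA1 are known to depend. It measured 1339, 1244 and 1340.0 after Olaparib and 1275, 1187 and 1249 in DMSO. The ranges overlapped, and its log2 fold change was 0.080 with an interval of -0.013 to 0.17 (adjusted p = 0.436, edgeR).

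Counts of XRCC3, RAD54B, RAD54L, FANCA, EME1 and MUS81 are less certain, as these 6 share 10% or more of their exon length with other genes.

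The comparison was widened to genes that act beside the 43. Of 48 further genes of recombination, crosslink repair and linked steps, such as the RPA subunits that coat single-stranded DNA and the accessory Fanconi proteins, 0 were called by edgeR, against 3.36% of all genes. At an unadjusted p under 0.05 there were 7 (14.6%), of which 6 were higher and 1 lower. The share was 14.8% of all genes tested (1702 higher and 1515 lower) and 20.9% in the count range of the 43. DESeq2 called 0 and limma voom 0. The conditions did not overlap for 11 of the 48 (22.9%), 9 of them higher and 2 lower after Olaparib. This was so for 19.3% of all genes tested (2173 higher and 2018 lower) and for 24.7% in the count range of the 43. The median log2 fold change of the 48 was 0.015, with 31 genes above 0 and 17 below. The estimates ran from -0.16 for CENPS to 0.38 for SLX4IP. The smallest adjusted p was 0.0753, for the helicase RECQL5.

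In the same samples, some S phase genes fell and some G2/M genes rose after Olaparib. The S phase genes came from a published cell cycle list, from which genes of homologous recombination had been taken out. UHRF1 of that list was not matched. Of the 37 S phase genes left, 6 were called lower and 0 higher after Olaparib, with a median log2 fold change of -0.046. Among all genes tested, 1.21% were called lower. Of 54 G2/M genes 17 were called higher and 0 lower, with a median of 0.077, where 2.15% of all genes were called higher. Lower S phase genes included CCNE2, a cyclin of S phase entry (log2 fold change -0.38), and DTL, an adaptor of replication-coupled protein degradation (-0.32). Higher G2/M genes included topoisomerase TOP2A (0.29) and the microtubule regulator CKAP5 (0.27). Summed normalised counts of the S phase genes were 138500.5 to 141053 after Olaparib and 143351 to 144572 in DMSO, and those of the G2/M genes 406984 to 414705 and 383245 to 386134. With an added 1.2-fold threshold 2 S phase and 2 G2/M genes were left, and the number of G2/M genes called was 11 without Olaparib replicate 3, without DMSO replicate 2 or without DMSO replicate 3. Neither sum overlapped between the conditions. The sums of the 48 other repair genes were 85132 to 85674 after Olaparib and 84188 to 84751 in DMSO. They did not overlap either, by a narrow margin, while those of the 43 repair genes did. Abundant genes weigh most in a sum, such as RPA1 with means of 11418 after Olaparib and 11285 in DMSO. Among single genes 19.3% of all tested did not overlap, and the contrast between the sums was not tested. The part of the S phase and G2/M shift in the values of the repair genes was not tested.

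**Figure D4:**
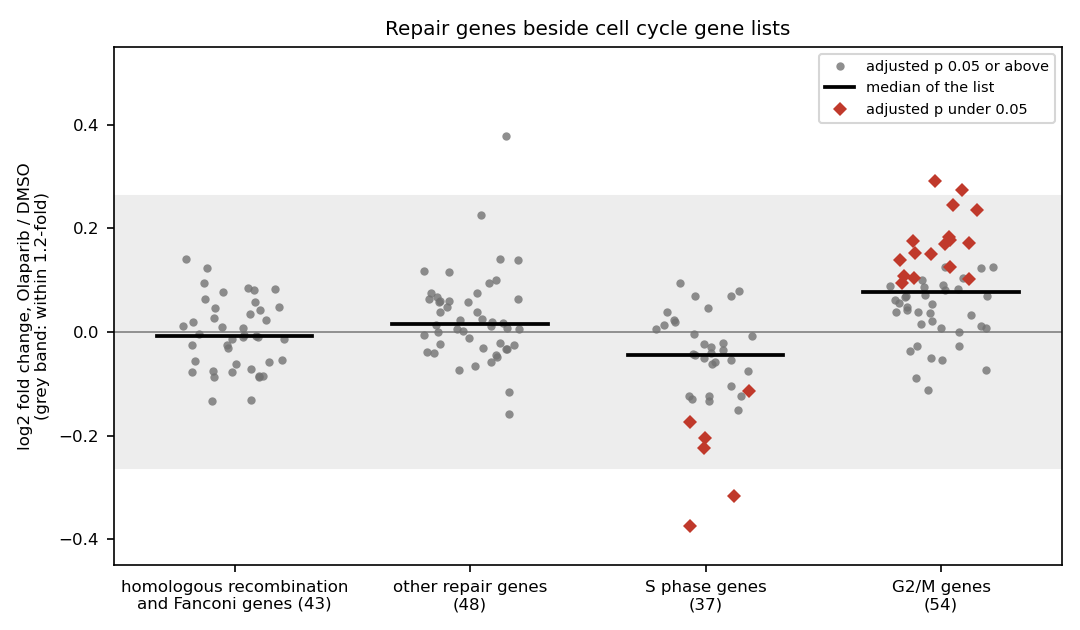
Log2 fold change (Olaparib over DMSO) of every gene of 4 lists, with the median of each list as a line and genes with an edgeR adjusted p under 0.05 as diamonds. The 43 recombination and Fanconi genes hold no diamond around a median of -0.0070, against 6 below 0 for S phase and 17 above 0 for G2/M genes.

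Many repair genes and S phase genes are known targets of E2F factors, which switch on transcription before replication, so the promoters were read for their letters. Windows of 250 bases before to 50 bases after the gene start came from RefSeq (GRCh38.p14) and were found for 37 of the 43 genes, in 51 windows. DNA2, FANCI, NBN, RAD54B, RMI2 and WRN were not matched. The E2F letters searched on both strands were TTTCCCGC, TTTGGCGC, TTTCGCGC and TTTGCCGC. They were present in 7 of the 51 windows (13.7%), in 3.31% of all 35116 promoter windows, in 46.3% of the windows of S phase genes and in 6.90% of those of G2/M genes. The CCAAT box of NF-Y was present in 37.3% of the windows of the 43 genes and 34.6% of all windows, and the cell cycle element TTTGAA in 13.7% and 15.2%. The same letters were present in 65.5% and 62.1% of the windows of G2/M genes and in 68.3% and 4.88% of those of S phase genes. The 48 other repair genes had E2F letters in 11.7% of their windows. The CRE letters TGACGTCA were present in 4 windows of the 43 genes (7.84%), from 3 genes, and in 1.85% of all windows. The NRF1 letters GCATGCGC were present in 5 windows of the 43 genes (9.80%), from 4 genes, and in 3.05% of all windows. CRE and NRF1 letters were present in 3.33% and 0% of the windows of the 48 other repair genes. The shares were 2.44% and 4.88% for S phase genes and 3.45% and 6.90% for G2/M genes.

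Genes with E2F letters were XRCC2, EXO1, RMI1, FANCA, FANCC, FANCD2 and GEN1. Their log2 fold changes ran from -0.084 for FANCC to 0.094 for FANCD2 with a median of -0.0098, and none was called. The stretches around the matches that lay fully before the start are shown for the repair genes that had one, beside those of 4 S phase genes called lower, because letters of this set stood before genes that passed the test and before genes that did not. Each runs 5′ to 3′ on the strand of its gene, with the match in capitals.

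RMI1 (chr9:83980747-83980804, plus strand, log2 fold change 0.027): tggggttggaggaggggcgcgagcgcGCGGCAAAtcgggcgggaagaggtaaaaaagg
FANCA (chr16:89816786-89816845, minus strand, -0.0098): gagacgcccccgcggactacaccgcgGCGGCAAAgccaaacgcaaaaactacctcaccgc
FANCC (chr9:95317848-95317907, minus strand, first match, -0.084): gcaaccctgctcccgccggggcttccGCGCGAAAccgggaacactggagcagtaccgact
FANCC (chr9:95317722-95317781, minus strand, second match, -0.084): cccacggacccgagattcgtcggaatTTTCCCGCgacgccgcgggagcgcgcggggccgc
DTL (chr1:212035714-212035747, plus strand, -0.32): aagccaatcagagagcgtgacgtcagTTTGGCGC
MCM6 (chr2:135876500-135876559, minus strand, -0.22): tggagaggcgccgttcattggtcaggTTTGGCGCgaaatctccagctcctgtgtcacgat
UBR7 (chr14:93207218-93207255, plus strand, -0.17): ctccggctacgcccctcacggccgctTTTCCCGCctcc
UNG (chr12:109098083-109098142, plus strand, -0.20): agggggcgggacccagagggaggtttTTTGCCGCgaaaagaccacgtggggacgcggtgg

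The matches began 32 bases before the start in RMI1, 172 in FANCA, 172 and 46 in FANCC, 8 in DTL, 90 in MCM6, 12 in UBR7 and 63 in UNG. In MCM6, a replicative helicase subunit, the capitals run on into a match on the other strand at 86, and an overlapping pair of the same kind at 152 and 148 is not shown. In DTL a CCAAT box and the letters TGACGTCA stand just before them. UNG encodes the uracil glycosylase of base excision repair. MCM6 measured 3326, 3279 and 3260.5 normalised counts after Olaparib and 3781, 3887 and 3849.8 in DMSO, with an adjusted p of 9.9e-05 by edgeR. Every treated sample was below every control for MCM6, which was not the case for RMI1, FANCA or FANCC. This contrast follows from the choice of genes. E2F letters stood in windows of 18 S phase genes, of which only genes called lower are shown. The repair genes were shown whatever their change. For CCNE2 and RRM2, also called lower, no E2F match was found, and their promoters may be missing from the windows. A match in the letters is a description of the window and no evidence of binding.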

How the data were processed

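Poly(A) RNA of 6 UWB1.289 samples, 3 per condition, was sequenced. The authors deposited raw read counts per gene, without normalization. Per the study's methods, libraries were prepared with a stranded kit, reads were trimmed with Trimmomatic, mapped to GRCh38 with STAR and assigned to genes with featureCounts. The strand setting of the counting and whether marked duplicates were removed are not given in the sources used here. Reads shared by overlapping genes can therefore shift counts of either gene.

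Samples were grouped by their labels. The deposited counts were filtered to genes whose sum over the samples exceeded 10, scaled by TMM (factors 0.995 to 1.01) and tested two-sided with edgeR 4.0.16 (glmQLFit and glmQLFTest, R 4.3.3), with Benjamini-Hochberg adjustment over 21729 genes. A gene was called at an adjusted p under 0.05. Normalised counts are counts divided by TMM-scaled library size. TPM used summed exon lengths, and gene names, coordinates and overlaps came from GENCODE release 44 on GRCh38, which held 81.9% of the identifiers. DESeq2 1.42.0, limma voom 3.58.1, other scaling, other filters, a 1.2-fold threshold, a replicate block, each sample left out and overlapping genes left out were alternatives. The edgeR step was tested on simulated data.

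Total counts of 35360458 to 39640775 per sample and a common biological coefficient of variation of 0.0353 set the precision. Replicates of a condition differed by more than sampling noise (chi-square over degrees of freedom 1.81 to 4.11 over 15525 genes), so all 6 were counted separately. Genes shown sample by sample were BRCA1, BRCA2, PALB2, the gene with the smallest p in each role group and those with the lowest and highest level per length. NBN and FANCD2 were added after their values were seen. The genes and the comparison lists were chosen with earlier results of these data known.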

Additional observations from a re-analysis of the deposited data

How the results depend on the processing

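The number of repair genes called was 0 with DESeq2, with DESeq2 size factors in edgeR, without a filter on low counts, and with edgeR's own filter. It was 1 (RBBP8) with limma voom and 1 (RBBP8) with upper quartile scaling. When each sample was left out in turn it was 0 to 1, the 1 being USP1 without Olaparib replicate 1. Among these alternatives the share of all genes called was counted only for DESeq2 and limma voom. The median estimate of the repair genes on the log2 scale stayed between -0.016 and 0.0009. Over the 13 alternative fits 29 genes kept the sign of their estimate and 14 crossed 0, all with estimates near 0. PALB2 was at -0.00072 with upper quartile scaling.

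Leaving out each sample in turn moved the log2 fold change of BARD1 from -0.084 to 0.029, BRCA2 from -0.045 to 0.12, FAN1 from -0.043 to 0.030, FANCA from -0.030 to 0.0057, FANCB from -0.086 to 0.085, FANCF from -0.044 to 0.050, FANCG from -0.018 to 0.036, PALB2 from -0.018 to 0.031, RAD51AP1 from -0.010 to 0.040, RAD51C from -0.016 to 0.019, RAD52 from -0.067 to 0.0060, RAD54B from -0.028 to 0.060, RAD54L from -0.032 to 0.0073 and RMI1 from -0.0083 to 0.070. Of the 48 other repair genes, 0 to 1 were called in these fits (RECQL5 without Olaparib replicate 1, SLX4IP without DMSO replicate 1), of the S phase genes 4 to 7 and of the G2/M genes 11 to 18, the 11 arising without Olaparib replicate 3, DMSO replicate 2 or DMSO replicate 3. With the 1.2-fold threshold 2 S phase genes and 2 G2/M genes remained.

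The labels number the replicates 1 to 3 in both conditions. Same-numbered samples did not deviate together (correlations of their deviations from the condition means -0.16, 0.18 and -0.22 over 13121 genes). Between samples of different numbers the correlations ran from -0.28 (Olaparib 3 with DMSO 2) to 0.37 (Olaparib 3 with DMSO 1). With 3 samples per condition the deviations are not independent, so these values cannot decide whether same-numbered samples were handled together. With the replicate number as a block, 3 repair genes were called (RBBP8, adjusted p = 0.0187; FANCI, 0.0343; USP1, 0.0439; edgeR), 1 other repair gene, 10 S phase genes and 27 G2/M genes. The share of all genes called with the block was not counted, so these numbers have no background beside them. The cause of the added calls was not tested. The 1.2-fold threshold and leaving out overlapping genes can add no call to a list without calls and are no check of it. Precision was lowest for the genes with the fewest counts, FANCB, RAD51D, RAD51B and FANCE.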
